A study of Mus musculus with 12 samples.

Results

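The genes Sox8, Sox9 and Sox10, which together form the SoxE group of transcription factors, were followed in the H4K8ac peak lists of mouse oligodendrocyte progenitor cells. All peaks to which the authors gave one of the 3 gene names were taken. They came to 32 of the 269580 peaks in 6 lists, and the members are 3 of the 23433 genes named there. Sox8 had 12 peaks, Sox9 had 2 and Sox10 had 18. The genes were chosen by name with their covered lengths, peak classes and age difference in these lists already known, so those values describe them and no test is attached.

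H4K8ac is acetylation of a lysine in the tail of histone H4, a mark found at active promoters and enhancers, and it was mapped by chromatin immunoprecipitation and sequencing. Progenitors were sorted from the forebrain of PdgfrαH2BEGFP mice, in which a histone-bound green fluorescent protein reports Pdgfra, a receptor gene of these progenitors. Neonatal cells were taken at postnatal day 5 and adult cells at postnatal day 60, with 3 biological replicates of each, no treatment named, and the same genotype at both ages. The sex of the mice, the number pooled for a replicate and the sorting gates are not given in the sources used here. Pdgfra also marks some fibroblasts of the brain's vessels and coverings, so the reporter is not limited to the oligodendrocyte lineage. The 6 input libraries were not analysed here.

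SoxE proteins bind DNA through an HMG box, bend it, and can act alone or as pairs on neighbouring sites. Sox9 acts early, when neural stem cells are set on a glial path, and it remains expressed in astrocytes. Sox10 is kept throughout the oligodendrocyte lineage and, with Myrf, switches on myelin genes, while Sox8 shares much of the work of Sox9 and Sox10 and is usually the milder of the group when lost.

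The libraries differed widely in the number of peaks called. Replicates 1, 2 and 3 gave 9097, 31189 and 7353 peaks in neonatal cells, against 72278, 72661 and 77002 in adult cells. Covered length was 2.98, 13.7 and 2.33 Mb in neonatal cells, against 41.9, 44.3 and 60.9 Mb in adult cells. Neonatal replicate 2 thus stands apart from the other neonatal libraries, and every adult list is longer than every neonatal one. Read depth is not in the files. Promoter lengths of the members are therefore given both as counted and per Mb covered by all peaks of the library, and their means as counted are repeated without neonatal replicate 2. Lengths of single genes outside the group are given as counted. Promoter peaks made up 85.2%, 67.5% and 88.8% of the peaks in neonatal replicates 1, 2 and 3. In the adult replicates they made up 43.9%, 43.1% and 40.4%. The per Mb scale divides by all peaks, promoter or not, so it rests on lists of unlike make-up. Summed lengths of gene lists have no sum over all genes beside them. In sorted bulk cells, fewer cells that carry the mark and less mark per cell cannot be told apart.

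RefSeq promoter sequence was at hand for 1 of the 3 members, Sox8. It is shown because the called peaks of this gene stop at its edge in 5 libraries. The stretch below holds the 250 bases before the RefSeq start of Sox8 on the minus strand, chr17:25570687-25570936 (GRCm38.p6), read 5′ to 3′. Capitals mark matches to CACGTG, the E-box bound by many basic helix-loop-helix factors, and to GGGCGG, the GC box bound by Sp factors.
Sox8: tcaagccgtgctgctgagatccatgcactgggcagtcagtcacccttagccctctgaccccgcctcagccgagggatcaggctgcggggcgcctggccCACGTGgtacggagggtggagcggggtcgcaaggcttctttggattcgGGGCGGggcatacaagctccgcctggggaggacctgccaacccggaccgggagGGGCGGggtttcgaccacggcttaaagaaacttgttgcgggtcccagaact
The stretch is 65.6% G and C, against a median of 52.4% over the same window of 32851 RefSeq promoters. Its 1 CACGTG begins 152 bases before the start, and its GGGCGG matches begin 104 and 51 bases before it, with no overlap between them. Both strands were searched, and CACGTG occurred in 6.02% and GGGCGG in 32.7% of all promoters. The letters ACAAT and ACAAAG, cores of the sequence that Sox proteins bind, and CCAAT were not found in this window, while 27.7%, 16.5% and 33.8% of promoters held them. A match describes letters and is not evidence that a factor binds there.

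Summed over its promoter peaks, Sox10 covered more bases than Sox8 or Sox9 in each of the 6 libraries. Sox10 lies on the minus strand at chr15:79154913-79164490 (GRCm38.p6). A promoter peak here is one that the authors placed within 3 kb of a transcription start site. These peaks covered 1290, 2994 and 458 bp in neonatal replicates 1, 2 and 3, against 7508, 12660 and 16314 bp in the adult replicates of the same order. All adult libraries lay above all neonatal ones. The means were 1581 ± 1293 bp (SD, n = 3) in neonatal and 12161 ± 4424 bp (SD, n = 3) in adult cells, a ratio of 7.69. Without neonatal replicate 2 the neonatal mean was 874 bp and the ratio 13.9.

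Sox8, on the minus strand at chr17:25565893-25570686, followed the same order of ages at a lower length. Its promoter peaks covered 749 and 1453 bp in neonatal replicates 1 and 2, none in neonatal replicate 3, and 3445, 3557 and 4467 bp in adult replicates 1, 2 and 3. The groups again did not overlap. The means were 734 ± 727 bp (SD, n = 3) and 3823 ± 561 bp (SD, n = 3), a ratio of 5.21, or 10.2 without neonatal replicate 2.

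Sox9, on the plus strand at chr11:112782210-112787757, went the other way. It had a promoter peak of 246 bp in neonatal replicate 1 and of 660 bp in neonatal replicate 2, and no peak of any kind in neonatal replicate 3 or in the 3 adult libraries. The neonatal mean was 302 ± 334 bp (SD, n = 3). Because neonatal replicate 3 also lacked a peak, the ages overlap at 0 for this gene. No fold is given against a group in which nothing was called, since an absent peak means only that the authors' threshold was not reached.

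These orders have to be read against all genes. Of the 18548 genes with a promoter peak in any library, 60.1% had longer promoter peaks in all adult than in all neonatal libraries, and 0.399% the reverse. Sox8 and Sox10 are therefore on the common side. Sox9 is on the rare side: a promoter peak in at least 2 neonatal libraries and in no adult one was found for 211 genes, or 1.14%. The choice of the members used these values, so nothing is concluded from their places.

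Relative to the covered length of each library, the ages overlapped for Sox8 and Sox10. Sox10 promoter peaks took 434, 218 and 196 bp per Mb in the neonatal libraries and 179, 286 and 268 bp per Mb in the adult ones. The ages overlap on this scale, with means of 283 ± 131 and 244 ± 57.0 bp per Mb (SD, n = 3 each). For Sox10 this overlap depended on which bases were counted. With only the bases within 3 kb of its starts, an alternative chosen after seeing the data, it took 792, 343 and 196 bp per Mb in the neonatal libraries and 152, 149 and 111 in the adult ones, so that all neonatal libraries lay above all adult ones. In the adult replicates, peaks covered 96.8%, 97.0% and 100% of the bases within 3 kb of the RefSeq start. Adult lengths around that start were thus close to the most that can be counted. No share over all genes was computed for the order within 3 kb, and nothing is concluded from it. Sox8 took 252, 106 and 0 bp per Mb in the neonatal libraries and 82.3, 80.3 and 73.3 bp per Mb in the adult ones, which also overlap. Sox9 took 82.7, 48.1 and 0 bp per Mb in the neonatal libraries and 0 in each adult library. Over all genes, 17.8% were higher per Mb in all adult libraries and 19.1% in all neonatal libraries.

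**Figure D1:**
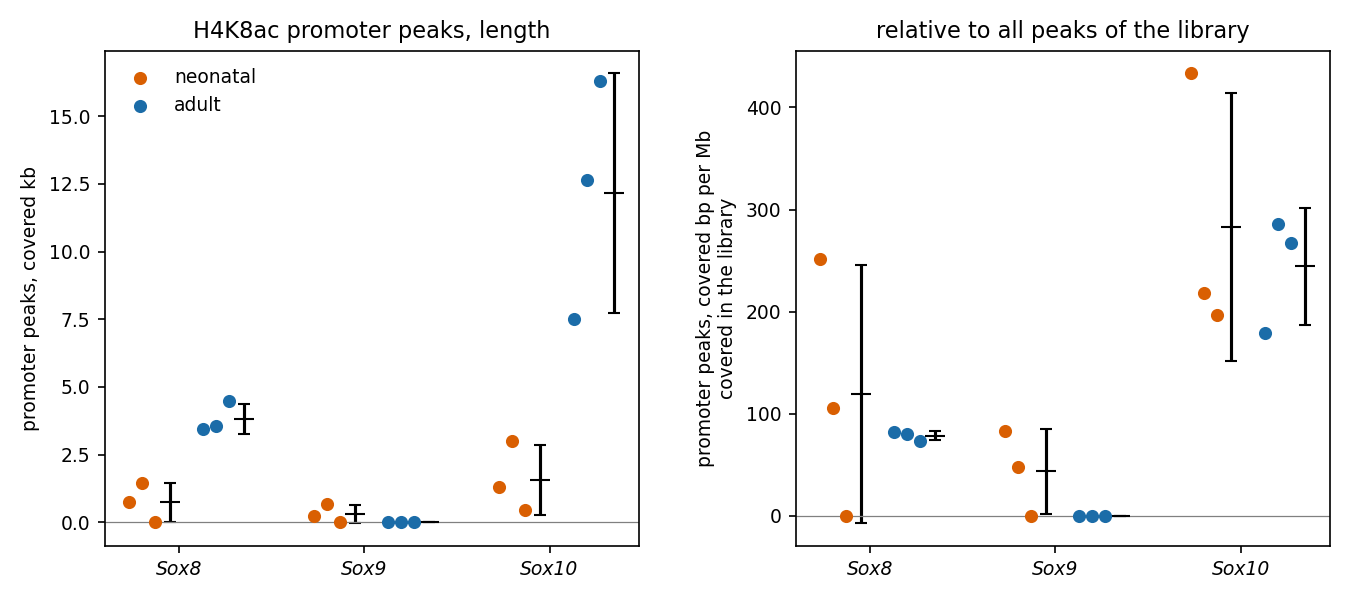
Promoter peak length of Sox8, Sox9 and Sox10, with 1 point per library (neonatal orange, adult blue), the group mean as a black dash and the SD as a bar. The left panel gives covered kb, where adult Sox10 reaches 16.3 kb, and the right panel gives covered bp per Mb covered in the library, where the ages overlap for all 3 genes.

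A second scale is the strongest part of each list. When every list was reduced to its 7353 strongest peaks, the length of the shortest list, all adult promoter peaks of Sox10 stayed in. The neonatal mean was then 994 bp and the adult mean 12161 bp, and all adult libraries were above all neonatal ones. Per Mb covered by these peaks the means were 298 and 924 bp, again with all adult libraries above. As counted in bp, all adult libraries lay above all neonatal ones for 35.0% of the 9904 genes with a promoter peak among the strongest. That share was not computed per Mb. Sox8 kept a peak in neonatal replicate 1 and adult replicate 3 only, and Sox9 kept its peak in neonatal replicate 1 only.

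Within a list, Sox10 was among the genes with the longest promoter coverage in 5 of the 6 libraries, neonatal replicate 3 being the exception. In adult replicates 1, 2 and 3 its promoter length ranked 258th of 15511, 79th of 15117 and 88th of 15488 genes with a promoter peak. In neonatal replicates 1, 2 and 3 it ranked 100th of 6383, 151st of 13700 and 1425th of 5629. Sox8 was longer than 91.6% to 92.5% of such genes in the adult libraries, and longer than 90.2% and 90.9% in neonatal replicates 1 and 2. Its place within a list thus differed little between libraries where it was called. Sox9 was longer than 33.4% of such genes in neonatal replicate 1 and than 55.3% in neonatal replicate 2.

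The shape of the Sox10 peaks also differed by library. In neonatal replicates 1 and 2 the promoter was called as 4 and 5 short peaks, the widest 0.528 and 1.41 kb, and in neonatal replicate 3 as 1 peak of 0.458 kb. In adult replicates 1 and 2 it was called as 2 broad peaks, the widest 4.15 and 6.92 kb, and in adult replicate 3 as 1 peak of 16.3 kb that spans the gene. That peak was the 19th widest of the 77002 in its list, and the widest Sox10 peaks of adult replicates 1 and 2 were the 347th and the 91st in theirs. The authors' fold enrichment of the strongest Sox10 peak was 5.20, 8.61 and 5.45 in neonatal replicates 1, 2 and 3, against 19.6, 18.1 and 20.5 in the adult replicates. Folds are the peak caller's values and have no common scale across lists. In its own list, the strongest Sox10 peak ranked above 61.1%, 84.6% and 67.8% of the peaks in the neonatal libraries and above 97.9%, 99.3% and 99.4% in the adult libraries.

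In the adult libraries the widest Sox8 peak was narrower than the widest Sox10 peak, and in neonatal replicate 1 it was wider. The widest Sox8 peak was 0.749 and 1.17 kb in neonatal replicates 1 and 2 and 1.92, 1.90 and 4.47 kb in adult replicates 1, 2 and 3. The strongest Sox8 peak had a fold of 4.95 and 5.87 in those neonatal libraries and of 10.2, 6.15 and 12.7 in the adult ones. The Sox9 peaks had folds of 4.12 and 5.07, and 22.0% and 51.6% of the peaks in their lists were weaker.

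**Figure D2:**
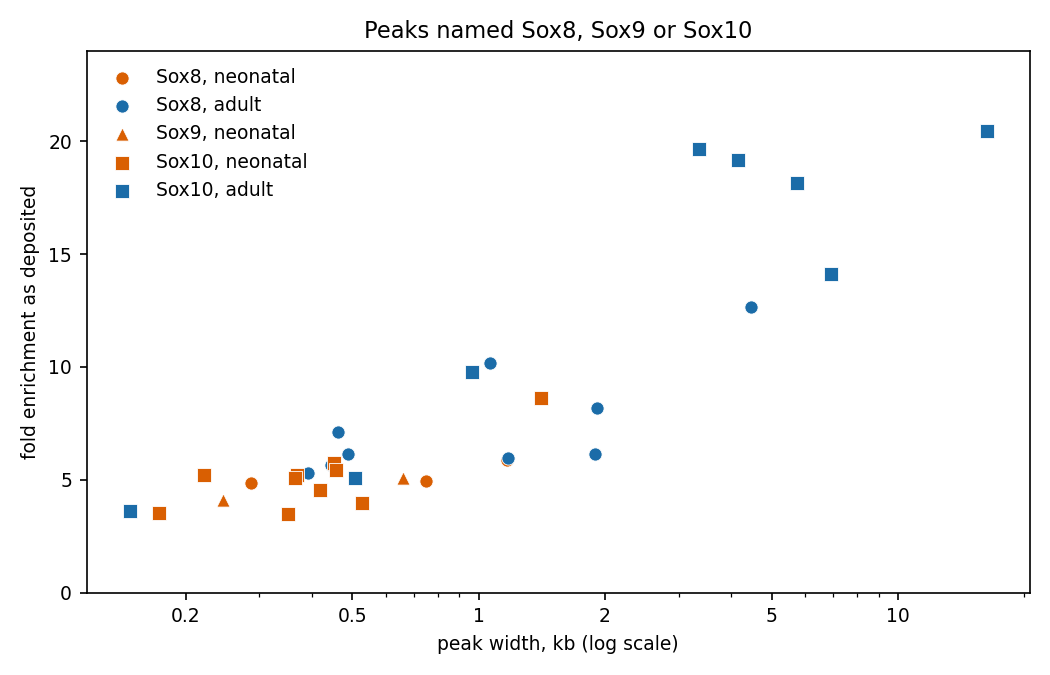
Width (log axis) against the fold enrichment deposited by the authors for the 32 peaks named Sox8 (circles), Sox9 (triangles) or Sox10 (squares), neonatal in orange and adult in blue. The broad adult Sox10 promoter peaks occupy the upper right, up to 16.3 kb and a fold of 20.5, while the Sox9 peaks and 3 further Sox10 peaks of adult replicate 1 are narrower than 1 kb. Folds of different libraries share no common scale.

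Peaks outside promoters were few under the authors' names, and none of the 32 was placed in the distal intergenic class. Sox8 had a peak in its 3′ UTR in adult replicates 1 and 2, of 392 and 445 bp. Sox10 had 3 such peaks in adult replicate 1 alone, 2 in introns and 1 in the 5′ UTR, covering 1619 bp in all. Adult replicates 2 and 3 have no separate peaks there because 1 broad promoter peak runs over the same bases. Sox9 had none.

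Merging the peaks of each gene over the libraries left 1 region for each. The Sox10 region spans chr15:79155085-79171398, or 16.3 kb, and was covered for 7.91%, 18.4% and 2.81% in the neonatal libraries and 55.9%, 77.6% and 100% in the adult ones. The Sox8 region spans chr17:25566180-25570662, or 4.48 kb, with 16.7%, 32.4% and 0% covered in the neonatal libraries and 85.6%, 89.3% and 99.6% in the adult ones. No member region was present in all adult libraries and absent from all neonatal ones.

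Called peaks often left a short uncovered stretch at the start of these genes. Around the RefSeq start of Sox8 the stretch measured 539 and 222 bp in neonatal replicates 1 and 2, against 279, 271 and 244 bp in the adult replicates. It separates the Sox8 peak from a peak over Cerox1, a long noncoding RNA gene that runs away from Sox8 and begins 124 bp from it. Of the 250 bases printed above, peaks covered 97 in neonatal replicate 2, 25, 22 and 30 in the adult replicates, and none in neonatal replicates 1 and 3. The printed bases thus fall mostly in the stretch without a call.

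At Sox10 the stretch measured 354 and 204 bp in neonatal replicates 1 and 2 and 182 bp in adult replicate 2. In adult replicate 1 it measured 191 bp and began 4 bp upstream of the start. Adult replicate 3 had no break there, and neonatal replicate 3 had no peak on the upstream side close by. At Sox9 the stretch was 873 and 499 bp in neonatal replicates 1 and 2. Over all protein-coding genes with a promoter peak, a break of under 1000 bp at or within 50 bp of the RefSeq start was found for 6.95% to 25.4% in the neonatal libraries and 23.8% to 31.3% in the adult ones.

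The surroundings of the 3 genes differ. Sox10 and Sox8 sit in gene-rich segments with many peaks named after their neighbours, and Sox9 sits beside a long stretch without protein-coding genes, where the known control elements of Sox9 are scattered. Within 50 kb on each side of the deposited start, a peak of any name was called in at least 1 library over 66653 of 100000 bp at Sox10, 65385 bp at Sox8 and 2003 bp at Sox9. Bases covered in all adult and no neonatal library came to 27.8 kb at Sox10, 25.6 kb at Sox8 and 0 at Sox9. These lengths have no value from windows around other genes beside them, so they are not read as traits of these loci. No base at any of the 3 was covered in all neonatal and no adult library, and 404 bp at Sox9 were covered in at least 2 neonatal and no adult library.

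**Figure D3:**
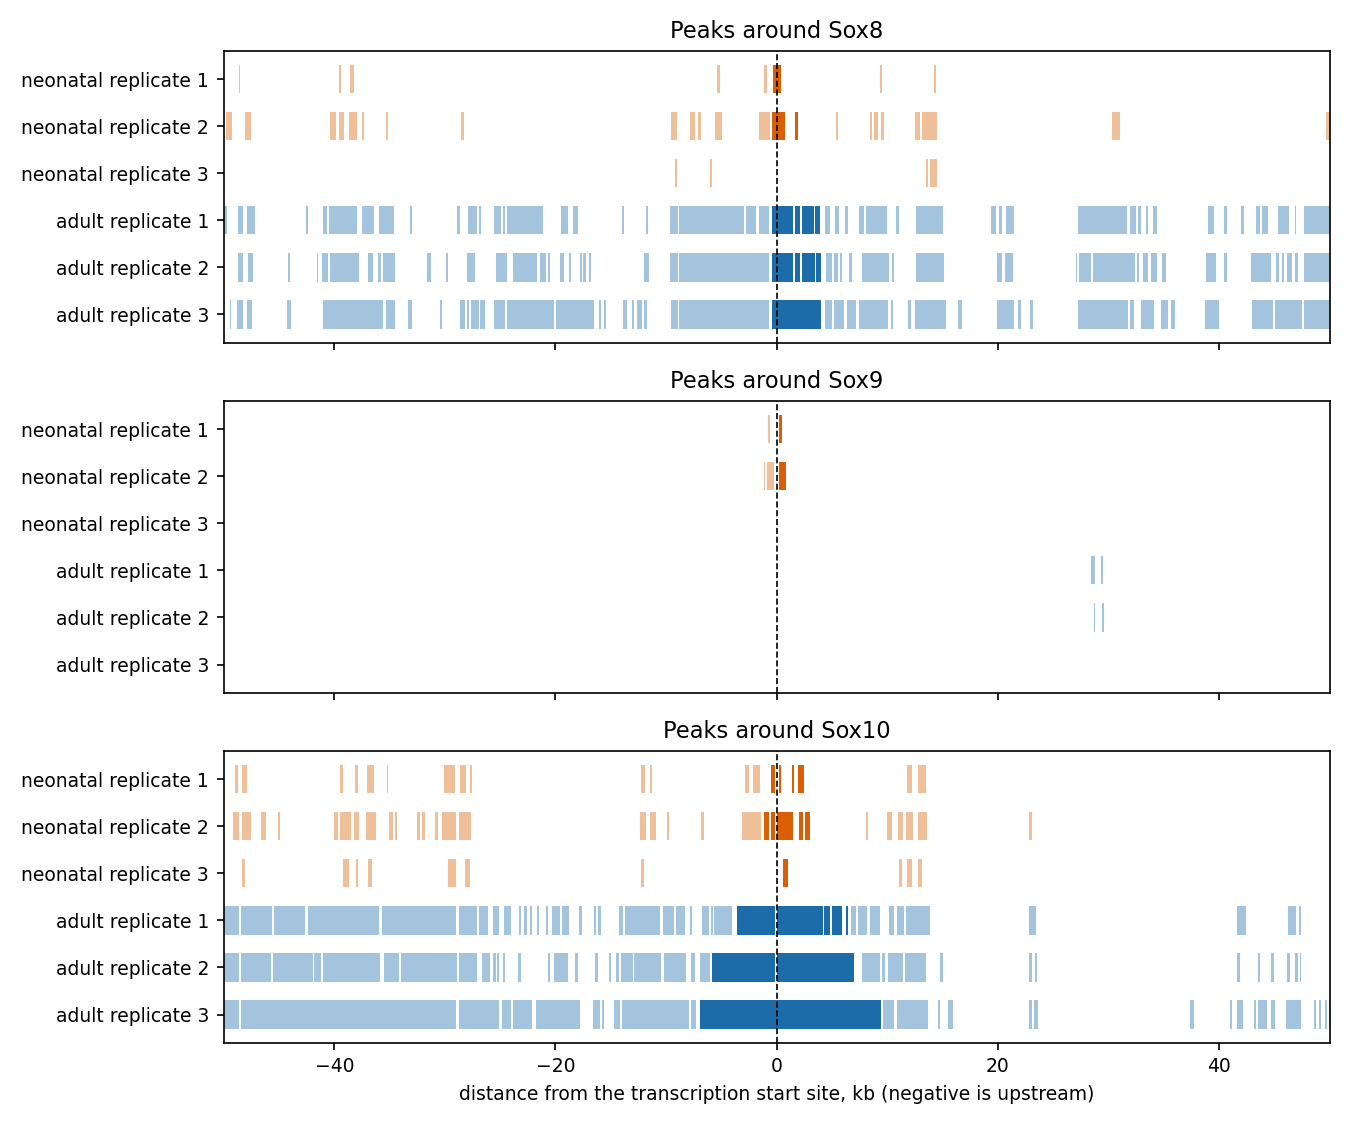
Called peaks within 50 kb of the transcription start site of each gene, in the direction of transcription, with a row per library (neonatal orange, adult blue). Peaks named after the gene are in full colour and those named after neighbours are pale. Sox10 and Sox8 are flanked by long adult peaks, and Sox9 shows short peaks at its start in neonatal replicates 1 and 2 and none there in adult libraries.

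The upstream side of Sox10 carried the longest coverage. From 20 to 50 kb upstream of its start, peaks covered 12.6%, 28.3% and 8.37% of the bases in neonatal replicates 1, 2 and 3, against 83.6%, 78.1% and 95.6% in the adult replicates. The ages do not overlap there as counted. Every adult list covers more bases than every neonatal one, and no share over other spans of this kind was computed. The authors gave these peaks to Gm10863, a long noncoding RNA gene whose nearest end lies 1575 bp upstream of Sox10. This span alone was not read per Mb covered in the library. On that scale, peaks of any name outside promoters and within 50 kb of Sox10 overlapped between the ages. They took 2156, 1021 and 2033 bp per Mb in the neonatal replicates and 1198, 1135 and 1101 in the adult ones. Around Sox8 such peaks took 493, 777 and 483 bp per Mb in the neonatal replicates and 901, 913 and 850 in the adult ones. All adult libraries lay above there, and no share over all genes was computed. The span from 20 to 50 kb downstream of the Sox10 start begins within Polr2f, which encodes a subunit shared by the RNA polymerases. In that span the adult libraries had 7.98%, 6.51% and 16.2% covered and the neonatal ones 0%, 0.977% and 0%.

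Parts of the Sox10 surroundings were called in every library. Bases covered in all 6 lists came to 2.58 kb near Sox10, 0.165 kb near Sox8 and 0 near Sox9. The longest such stretch at Sox10 was 691 bp, at chr15:79193547-79194237, from 29.1 to 29.7 kb upstream of the start. The peaks over it had folds of 4.08, 9.50 and 5.14 in neonatal replicates 1, 2 and 3, against 25.3, 19.9 and 24.8 in the adult replicates, where they ranked 563rd, 444th and 123rd of their lists. It belonged in each adult library to the strongest peak within 50 kb of Sox10. None of the bases within 3 kb of the Sox10 start was among those covered in all 6 lists. The stretch near Sox8 was 165 bp long and lay 14.2 to 14.4 kb downstream of the start.

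Around Sox9, peaks were sparse at both ages. Besides the Sox9 peak, neonatal replicates 1 and 2 had 1 and 2 promoter peaks named BC006965, a long noncoding RNA gene whose deposited start lies 248 bp from that of Sox9, and these covered 0.158 and 0.732 kb. Together the peaks of any name covered 6.73%, 23.2% and 0% of the bases within 3 kb of the Sox9 start in neonatal replicates 1, 2 and 3 and 0% in each adult library. A distal peak about 161 kb upstream was called in the same 2 neonatal libraries and in no adult library. In turn, adult replicates 1 and 2 each had 2 distal peaks from 28.4 to 29.6 kb downstream, named Gm11681, that no neonatal library had. Adult replicate 3 and neonatal replicate 3 had no peak within 200 kb of Sox9 on either side.

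The authors' deposited table of differential sites holds 1 site under each of the 3 names. It was made from the same libraries and is no independent evidence. A positive log2 fold change in it was read as higher in adult cells, since 99.99% of positive sites overlapped an adult peak and 98.4% of negative sites a neonatal one. In the authors' deposited table the Sox10 promoter site, chr15:79164934-79165333, had a log2 fold change of 1.82 with an adjusted p of 1.05e-05. In the authors' deposited table the Sox8 promoter site, chr17:25569315-25569714, had a log2 fold change of 1.30 with an adjusted p of 0.00626. In the authors' deposited table the Sox9 promoter site, chr11:112782539-112782938, had a log2 fold change of -1.94 with an adjusted p of 0.00529. The authors' deposited table thus puts Sox10 and Sox8 on the adult side and Sox9 on the neonatal side.

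The number of sites tested was recovered from the adjusted p-values as 54838, which 88.8% of listed sites gave to within 1. Of these, the authors' deposited table lists 79.6% as higher in adult and 0.463% as higher in neonatal cells, so Sox9 is again on the rare side. The median of all listed sites in the authors' deposited table was 2.41 on the log2 scale, and both adult-higher member sites lay below it. Of the listed sites in the authors' deposited table, 29.2% had a lower value than the Sox10 site and 8.41% a lower value than the Sox8 site.

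Within 50 kb of the genes, the authors' deposited table lists 19 sites near Sox10 and 27 near Sox8, all higher in adult cells, and 2 near Sox9, both higher in neonatal cells. The values in the authors' deposited table ran from 1.30 to 3.58 with a median of 2.65 near Sox10, and from 1.13 to 4.46 with a median of 2.10 near Sox8. The highest near Sox10 lay in introns of Gm10863 16.4 and 19.7 kb upstream of the start, and the highest near Sox8 in an intron of Lmf1, a lipase maturation factor gene, 22.6 kb upstream. A site 28.2 kb upstream of Sox10, overlapped by peaks of all 6 libraries, had a log2 fold change of 1.99 in the authors' deposited table. The second Sox9 site in the authors' deposited table is the BC006965 promoter, with a log2 fold change of -2.16 and an adjusted p of 0.00104. The distal site upstream of Sox9 has -1.65 in the authors' deposited table, with an adjusted p of 0.0316.

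**Figure D4:**
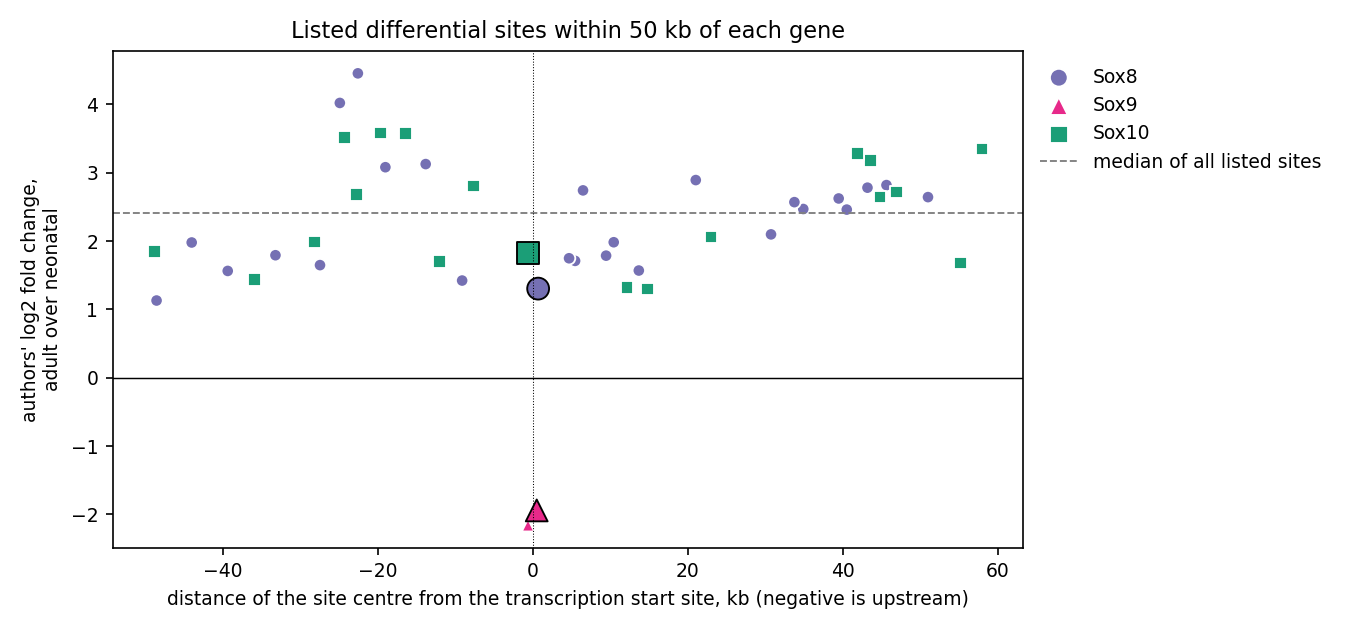
The authors' log2 fold change, adult over neonatal, against the distance from the transcription start site in kb, for sites of the deposited table within 50 kb of Sox8, Sox9 or Sox10. Large outlined symbols are the sites named after the gene, and the dashed line is the median of all listed sites, 2.41. The Sox9 sites are the only ones plotted below 0.

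Among the other Sox genes, 11 of 17 had a promoter peak in some library and 7 in all 6. Of these 17 genes, 3 had longer promoter peaks in all adult than in all neonatal libraries: Sox2, a stem cell factor, and Sox12 and Sox13. They are 3 of the 11 Sox genes with a promoter peak in some library. Of all genes with a promoter peak in any library, 60.1% had this order. Sox11, a factor of immature neural cells, had the opposite order, with 661, 2572 and 646 bp in the neonatal libraries and 198, 358 and 0 bp in the adult ones. In the authors' deposited table the promoter sites of Sox12 and Sox13 had log2 fold changes of 1.03 and 1.42, and those of Sox11 and Sox5, a SoxD factor of progenitors, had -2.17 and -3.00. No listed promoter site was found for the remaining 13. Each value is that of 1 site per gene, the listed promoter site with the smallest p. As counted, Sox5 promoter lengths overlapped between the ages, with 800, 2149 and 506 bp in neonatal and 945, 1014 and 844 bp in adult libraries. Per Mb covered, the 17 genes summed to 1217 to 2082 bp of promoter peaks in neonatal and 224 to 309 bp in adult libraries. The sum over all genes was not computed on this scale. Sox10 had the highest adult mean of any Sox gene, and Sox9 was the only SoxE member without an adult call.

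**Figure D5:**
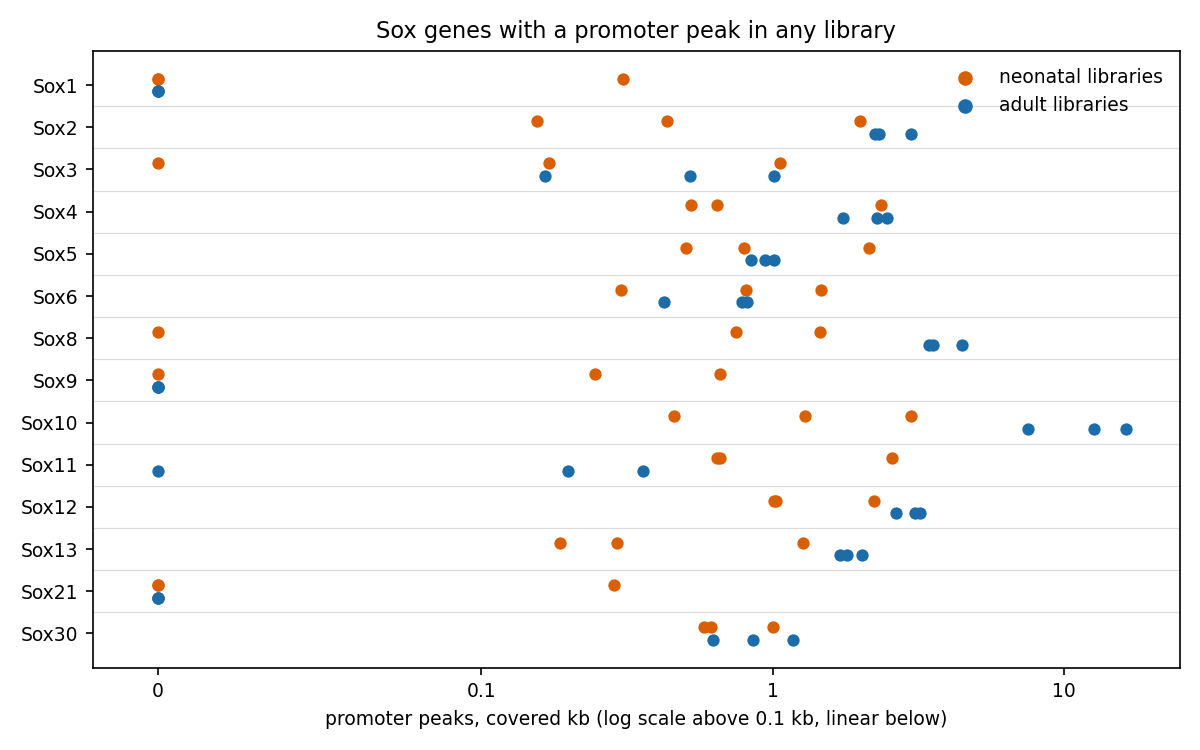
Covered length of promoter peaks in kb (log scale above 0.1 kb) for the 14 Sox genes with a promoter peak in any library, with 1 point per library, neonatal in orange and adult in blue. Points at the same value lie on top of each other. Sox10 and Sox8 have the longest adult peaks, while Sox9, Sox1 and Sox21 are at 0 in all adult libraries.

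Genes known as SoxE targets in glia lay mostly on the adult side. Of 20 targets, 17 had longer promoter peaks in all adult libraries, or 85%, against 60.1% of all genes, and none had the reverse. The myelin genes Mag, Mog and Mobp and the connexin gene Gjb1 were among those whose promoter was called in every adult and in no neonatal library. This pattern held for 6 of the 20 targets, and for 2249 of the 18548 genes with a promoter peak in any library. Mog, a protein of the outer myelin surface, covered 5725, 5792 and 11598 bp in adult replicates 1, 2 and 3. Myrf, the partner of Sox10 in myelin gene activation, covered 236, 244 and 0 bp in the neonatal libraries and 11554, 13403 and 18039 bp in the adult ones.

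Of the targets, 17 had an adult-higher promoter site in the authors' deposited table, 1 a neonatal-higher site and 2 none, with a median of 3.09 against 1.77 over the 12058 genes with a listed promoter site. The largest values in the authors' deposited table were 5.55 for Enpp2, 4.42 for Mobp, 4.08 for Dusp15 and 4.03 for Mog. Each value is that of 1 site per gene, the listed promoter site with the smallest p, and does not describe the whole promoter. The smallest in the authors' deposited table were -1.23 for Pdgfra, the receptor of the progenitors, then 1.95 for Gjb1, 2.09 for S100b and 2.16 for Myrf. Pdgfra had promoter peaks in all 6 libraries, with 1638, 5617 and 513 bp in neonatal and 1586, 1205 and 2119 bp in adult libraries, which overlap. Per Mb covered, the target list summed to 760 to 1897 bp in neonatal and 2587 to 2994 bp in adult libraries. Ednrb, an endothelin receptor gene, was called only in neonatal replicate 2.

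Partners and upstream regulators of SoxE factors had a share near that of all genes. Of 24, 17 had longer promoter peaks in all adult libraries, or 70.8% beside the 60.1% of all genes, and 1, Sox11, had the reverse. Nkx6-2, a homeobox factor of myelinating cells, and Pou3f1, a POU factor known from Schwann cells, were called in all adult and no neonatal library. They are 2 of the 24, beside 2249 of the 18548 genes with a promoter peak in any library. The largest values in the authors' deposited table were 5.51 for the chromatin remodeller Chd7, 5.16 for Nkx6-2, 4.41 for the zinc finger factor Zeb2 and 3.58 for the receptor gene Notch1. Each is again the value of 1 site. All promoter peaks of Chd7 covered 1650, 2175 and 1393 bp in neonatal and 4160, 6053 and 11590 bp in adult libraries. The smallest in the authors' deposited table were -2.17 for Sox11, 0.96 for the deacetylase Hdac2, and 1.49 for both the remodeller Smarca4 and the lineage factor Olig2. For this list the authors' deposited table gives a median of 1.83, beside 1.77 for all genes. Per Mb covered, the summed promoter length of the list was 2568 to 3552 bp in neonatal and 1800 to 1957 bp in adult libraries, so the neonatal libraries lay above. The sum over all genes was not computed on this scale.

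Markers of cell types were read beside these values. For scale, 18548 genes had a promoter peak in any library. Of them, 6383, 13700 and 5629 had one in neonatal replicates 1, 2 and 3, and 15511, 15117 and 15488 in the adult replicates. All 8 oligodendrocyte markers carried a promoter peak in every adult library, and 2, 2 and 1 of them did in neonatal replicates 1, 2 and 3. Their summed promoter length ran from 0.435 to 3.08 kb in neonatal and from 51.5 to 79.9 kb in adult libraries, or 186 to 447 and 1165 to 1311 bp per Mb covered, and Mog, Mag, Mobp, Opalin and Ermn were among those at 0 in every neonatal library. As counted, these markers are longer in the same libraries as Sox10 and Sox8, an order shared by 60.1% of all genes. Per Mb covered the markers are still higher in the adult libraries, while for Sox10 and Sox8 the ages overlap. Of these markers, 6 are also on the target list. Their part in the Sox10 and Sox8 values was not tested.

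The progenitor markers were called at both ages, with 8, 8 and 7 of 8 in the neonatal and 7, 7 and 6 of 8 in the adult libraries. Their summed length was 3.50 to 19.6 kb in neonatal and 29.9 to 38.2 kb in adult libraries. Per Mb covered the order was the reverse, with 1428 to 2210 bp in neonatal and 626 to 715 bp in adult libraries. Promoter peaks were a smaller share of the adult lists, and no sum over all genes was computed per Mb. The part of that share in this order was not tested. Of the 8 markers, 5 were called in all 6 libraries. Cspg4, Olig1 and Olig2 had longer promoter peaks in all adult than in all neonatal libraries, and no marker had the reverse. That is 37.5% of the markers, beside 60.1% of all genes with a promoter peak in any library. Ptprz1 and Gpr17 were called in 3 neonatal and 2 adult libraries each, and Lhfpl3 in 2 neonatal libraries and 1 adult one.

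Sox9 is also a gene of astrocytes, so their markers were set beside it. Of 10 astrocyte markers, 3, 8 and 2 had a promoter peak in neonatal replicates 1, 2 and 3, against 6, 4 and 7 in the adult replicates. Their summed length was 0.45 to 7.15 kb in neonatal and 6.86 to 15.9 kb in adult libraries, or 193 to 521 and 157 to 261 bp per Mb covered, so the ages overlap on both scales. Aqp4 was at 0 in all 6 libraries. Gja1 and Gjb6 were called only in neonatal replicate 2, with 796 and 881 bp, and Gfap there and in adult replicate 3. Slc1a3 and S100b had longer promoter peaks in all adult libraries, Slc1a3 with 2268 to 4680 bp against 0 to 724 bp in neonatal ones. Fgfr3 and Aldoc were called in 3 adult and 2 neonatal libraries each, Slc1a2 in 2 adult and 3 neonatal, and Aldh1l1 in 2 adult libraries only. S100b, one of the 10, is on the SoxE target list too. The part of astrocytes in the Sox9 peaks was not tested.

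Markers of other cell types were read in the same way. Of 8 microglia markers, Cx3cr1 alone had a promoter peak, in the 3 adult libraries, and the summed length was 0 in neonatal and 0.579 to 1.07 kb in adult libraries. Of 6 endothelial markers, Pecam1 and Kdr were called in the adult libraries only, with sums of 0.659 to 1.66 kb. The 8 neuron markers summed to 0 to 2.04 kb in neonatal and 3.13 to 5.11 kb in adult libraries, and the 6 fibroblast markers to 0 to 0.881 kb and 0.527 to 0.545 kb. A promoter peak in some library was found for 6 of the neuron and 3 of the fibroblast markers. Tubb3, with 2210 to 3935 bp, and Rbfox3, Slc17a7 and Col1a1 were called in all 3 adult libraries. Slc17a7 had no neonatal call, and the others 1 each. Gad1 was called in 2 neonatal libraries and 1 adult one, and Syt1 and Col1a2 in 1 of each age. Gad2 and Pdgfrb were called in 1 neonatal library only. Snap25, Stmn2, Lum, Dcn and Col3a1 were at 0 throughout. The part of these cells in the SoxE values was not tested.

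Other genes had promoter lengths very like those of the members. Likeness was the distance over the 6 libraries between log2 values of covered bp plus 100, among 18547 genes. The nearest to Sox10 were Evi5l, Tns3 and Rapgef3, at distances of 0.60, 0.66 and 0.74. Tns3, which encodes a tensin, covered 1317, 3931 and 510 bp in the neonatal libraries and 8717, 9778 and 13283 bp in the adult ones. The nearest to Sox8 were Sptb, Lbh and Zfhx2, at 0.35, 0.54 and 0.57, and all 3 lacked a promoter peak in neonatal replicate 3, as Sox8 did. The nearest to Sox9 were Syndig1, Nxph1 and Ldb2, at 0.06, 0.16 and 0.17. Syndig1 covered 233 and 663 bp in neonatal replicates 1 and 2 and, like Sox9, nothing elsewhere.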

How the data were processed

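H4K8ac ChIP-seq peaks were compared between 3 neonatal and 3 adult libraries, each made from 2 ng of DNA per the labels' protocols. Per the submitters' processing notes, which give no order or roles, the tools were Trim Galore, Bowtie2 2.4.5, SAMtools, deepTools, MACS2, DiffBind and ChIPseeker, with GRCm38. Per the file headers, each deposited list gives position, score, fold enrichment (a linear ratio), −log10 p-value, −log10 q-value and annotation. The score is 10 times −log10 q, rounded down. The largest q-values were 0.0427 to 0.0489. Starts in the lists count from 0 and are printed from 1. The authors' deposited differential table gives log2 fold changes, p-values and adjusted p-values for 43888 sites, all with an adjusted p under 0.05. It has no header, its starts were read like those of the lists, and a site took the gene of the peak sharing most bases with it. The promoter log2 value of a gene is that of its listed promoter site with the smallest p.

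Covered bases were counted with Python 3.11.15, numpy 2.4.6 and pandas 2.3.3, and the code was tested on simulated intervals. Depth is unknown, no read counts were used, and 3 against 3 libraries cannot give an exact two-sided permutation p under 0.1. The members and all lists were chosen with earlier results of these data known. Named list genes are those called in every library of 1 age and no library of the other, and the 4 largest and 4 smallest promoter log2 values; other list genes named were chosen after their values were seen. Some genes that this rule names are not reported here. Alternatives were a q limit of 0.005, the 7353 strongest peaks, peaks by position, an adjusted p under 0.005, a region share of 50% and leaving out each library.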

Additional observations from a re-analysis of the deposited data

How the results depend on the processing

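Values are differences of group means, adult minus neonatal. For promoter bp the direction was the same for all 3 genes under every alternative, and leaving out each library gave 2722 to 3449 bp for Sox8, -453 to -123 bp for Sox9 and 8503 to 12906 bp for Sox10. With the strongest peaks the Sox8 difference was 1239 bp. With peaks by position it was 10619 bp for Sox8 and -599 bp for Sox9. Within 3 kb of the start, an alternative chosen after seeing the data, it was 4226, -599 and 4070 bp for Sox8, Sox9 and Sox10.

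Per Mb covered, the differences of -40.5 bp for Sox8 and -38.3 bp for Sox10 were not stable. By position Sox8 turned to 66.1 bp per Mb, and with the strongest peaks Sox10 turned to 625 bp per Mb. Leaving out libraries gave -100.1 to 25.7 bp per Mb for Sox8 and -81.5 to 37.1 for Sox10, and the upper values, where the sign changed, came without neonatal replicate 1. By position it was -79.1 for Sox9 and -199 for Sox10, and within 3 kb of the start -79.1 for Sox9 and -306 for Sox10. All adult libraries lay above all neonatal ones for Sox10 with the strongest peaks and below them within 3 kb of the start. Adult peaks covered nearly all bases within 3 kb of the RefSeq start. No share over all genes was computed for the order within 3 kb, and nothing is concluded from it. The cause of these changes was not tested.

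For peaks outside promoters, taking all peaks within 50 kb whatever their name gave 38886, 282 and 47447 bp for Sox8, Sox9 and Sox10, or 303, 6.61 and -592 bp per Mb, the last with its sign changed. The strongest peaks left 0 bp and 0 bp per Mb for Sox8. Regions in all adult and no neonatal libraries went from 0 to 1 for Sox8 and 1 for Sox10 at a region share of 50%, and for Sox8 ran from 0 to 2 over the libraries left out, 2 without adult replicate 3. At an adjusted p under 0.005 the deposited sites named Sox8 and Sox9 went from 1 to 0 each, and within 50 kb they numbered 27 for Sox8, 2 for Sox9 and 19 for Sox10. No paired analysis was possible because the results come from no test, and the labels number the replicates of each age without saying that a number is shared by a litter or a day. Depth is not in the files, so a missing peak, as at Sox9 in adult cells, cannot be told from a signal under the authors' threshold.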
